A study of Mus musculus with 20 samples.

Results

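The subunits of the AMPA and kainate receptors were followed on 20 one-colour arrays of mouse brain RNA, 5 arrays in each of 4 groups. The genes are Gria1, Gria2, Gria3 and Gria4 for the AMPA receptors and Grik1, Grik2, Grik3, Grik4 and Grik5 for the kainate receptors. Every probe named for a RefSeq transcript of these 9 genes was taken, which gave 14 of the 55681 probes on the array, 7 for each family. All animals were male C57BL/6J mice aged 6 to 7 weeks by the labels. All of them carried the doxycycline-responsive Tet protein under the GFAP promoter, which is active mainly in astrocytes, and all received doxycycline at 100 mg/kg daily for 7 days. Tat+ mice also had the TRE-driven Tat transgene, which encodes the HIV-1 protein Tat, and Tat− mice lacked it. Within each genotype 5 mice were injected daily for 7 days with methamphetamine (2 mg/kg; groups Tat−/Meth and Tat+/Meth) and 5 with saline (0.9%; groups Tat−/Sal and Tat+/Sal). By the labels the left hemisphere was taken 24 h after the final injection, whereas the study's methods describe the caudate putamen of older mice after a Meth challenge that followed a period without the drug. No probe for Tat was used here, so the genotype labels were not checked on these arrays.

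AMPA receptors are tetrameric ion channels that carry most of the fast excitatory current at glutamate synapses. Their permeability to calcium depends on whether they hold the Gria2 subunit, whose RNA is edited in the pore by Adarb1. Kainate receptors are built from Grik1, Grik2 or Grik3, which form channels by themselves, and from the high-affinity subunits Grik4 and Grik5, which need one of the former. Both kinds of receptor are found on striatal projection neurons and on the cortical and thalamic terminals that reach them, and AMPA receptors are also present on glia. Trafficking of AMPA receptors in the striatum is one of the known responses to repeated psychostimulants. The arrays measure RNA and say nothing of receptors at the membrane.

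A few facts of the whole series bear on all of these values. The signals are background-subtracted intensities on the log2 scale, each array being scaled by its own 75th percentile. All 10 genes of a list of striatal projection neuron markers were measured, and their summed level ran from 19.95 to 20.29 over the 20 arrays, so striatal tissue was present in all groups. All 5 Tat−/Meth arrays lay on slide 1, which held no other group. Slide 2 held Tat−/Sal with 3 of the Tat+/Meth arrays, and slide 3 held Tat+/Sal with the other 2. The bright corner control spots lay between 14.66 and 15.06 on slide 1, below the 16.80 to 17.42 of slides 2 and 3. In every comparison with Tat−/Meth the group and the slide therefore cannot be told apart. In bulk tissue, fewer cells of a type and less RNA per cell cannot be told apart either.

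Promoter sequences are shown for the subunit genes that had a passing probe in both comparisons with Tat−/Meth described below, as far as the RefSeq table (build GRCm38.p6) holds them. It held 6 of the 9 genes. Each sequence runs from 250 bases before to 50 bases after the annotated start and is written 5′ to 3′ on the strand of the gene. Capitals mark GGGCGG, the core of the GC box, and CCAAT, the CCAAT box, on either strand (CCGCCC and ATTGG on the other).
Gria2, chr3:80802786-80803085, minus strand: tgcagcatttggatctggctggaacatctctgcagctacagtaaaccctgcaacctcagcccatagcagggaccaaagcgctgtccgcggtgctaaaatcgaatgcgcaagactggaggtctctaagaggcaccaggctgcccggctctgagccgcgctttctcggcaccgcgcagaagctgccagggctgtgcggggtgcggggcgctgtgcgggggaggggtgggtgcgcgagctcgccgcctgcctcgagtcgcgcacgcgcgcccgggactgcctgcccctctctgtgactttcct
Gria4, chr9:4796185-4796484, minus strand: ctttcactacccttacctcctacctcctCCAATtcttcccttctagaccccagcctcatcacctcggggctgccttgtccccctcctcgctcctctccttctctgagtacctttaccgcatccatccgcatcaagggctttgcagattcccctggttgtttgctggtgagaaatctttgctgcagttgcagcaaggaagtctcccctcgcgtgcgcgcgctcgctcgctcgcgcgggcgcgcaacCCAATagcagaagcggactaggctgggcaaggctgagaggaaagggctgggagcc
Grik4, chr9:42944322-42944621, minus strand: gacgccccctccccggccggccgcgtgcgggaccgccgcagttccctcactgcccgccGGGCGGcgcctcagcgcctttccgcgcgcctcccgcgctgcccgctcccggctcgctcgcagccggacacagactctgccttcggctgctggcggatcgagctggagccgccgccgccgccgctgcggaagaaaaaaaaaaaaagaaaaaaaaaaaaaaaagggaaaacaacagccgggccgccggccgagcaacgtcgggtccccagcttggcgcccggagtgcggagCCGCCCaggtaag

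The Gria4 promoter held 2 CCAAT boxes and no GC box, the Grik4 promoter held 2 GC boxes and no CCAAT box, and the Gria2 promoter held neither. GGGCGG is in 35.7% and CCAAT in 37.4% of the 32851 promoters of the table. Both motifs were searched on both strands and do not overlap each other here. The TATA box (TATAAA, in 13.6% of all promoters), the CRE (TGACGTCA, in 1.79%) and the AP-1 site (TGACTCA, in 5.20%) were found in none of the 6 promoters. All 6 were rich in G and C, from 59.7% in Gria4 to 82% in Grik3, beside a median of 52.7% over all promoters. The 3 promoters shown thus had a high GC content and no shared motif among those searched.

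Of the 14 probes, 13 were well above background on all 20 arrays. The exception was the dimmer of the Grik3 probes (A_55_P2158251), which was well above background on 4 of 20 arrays and was left out of the tests. Its group means were 4.16 (Tat+/Sal), 4.67 (Tat+/Meth), 4.69 (Tat−/Meth) and 4.72 (Tat−/Sal), and its highest value, 6.74, was on Tat−/Meth replicate 5. Gria1, Grik1, Grik4 and Grik5 had 1 probe each. Gria2, Gria3, Gria4, Grik2 and Grik3 had 2, called brighter and dimmer below by their mean over the 20 arrays, and in Gria2, Gria4 and Grik2 these are named for different transcripts of the gene. Signals of different probes are not compared as levels of RNA, because each probe has its own response.

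The pooled SD within groups ran from 0.08 for the brighter Grik3 probe to 0.32 for the dimmer Grik2 probe, beside a median of 0.19 over all 31516 probes tested. Among the 13 tested probes, the mean of Tat−/Meth was the highest of the 4 groups for 8 and the lowest for 3, although on unscaled signals, which were lower overall on slide 1, it was the highest for 0. The mean of Tat+/Meth was the highest for 0 and the lowest for 3. Tat+/Sal was the highest for 3 and the lowest for 5, and Tat−/Sal for 2 and 2.

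**Figure D1:**
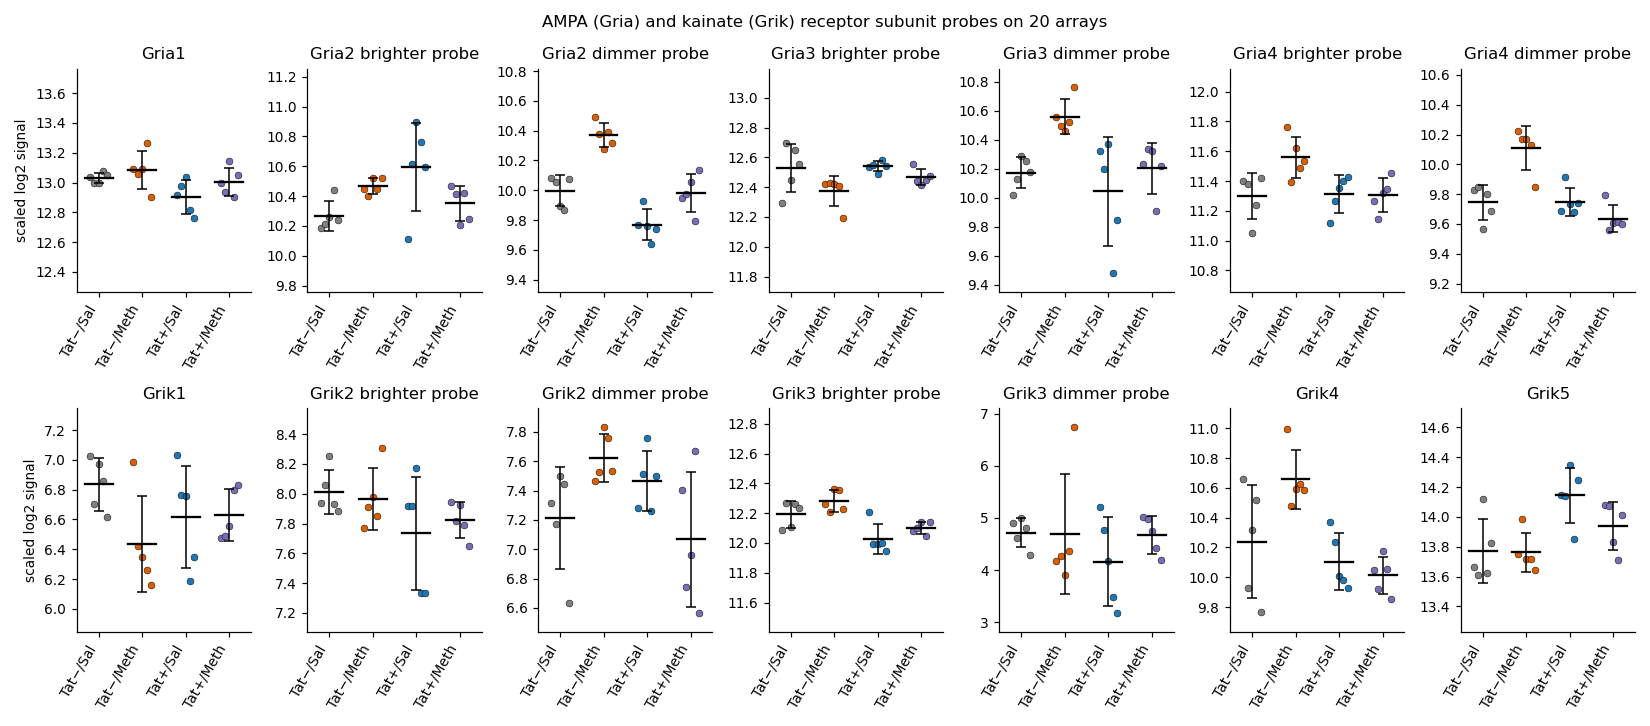
Scaled log2 signal of the 14 probes (vertical axes, a separate range for each panel) on each of the 20 arrays, by group. Points are arrays, horizontal bars are means and whiskers are SD (n = 5); on this scale the Tat−/Meth points of the dimmer Gria2 and Gria3 probes lie above all points of Tat−/Sal and Tat+/Meth.

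The first comparison, Tat−/Meth vs. Tat−/Sal, asks what repeated Meth did without Tat. A probe passed at a Benjamini–Hochberg adjusted *p* under 0.05, taken over all 31516 probes tested. Of the 13 subunit probes 6 passed (limma), 5 higher and 1 lower in Tat−/Meth, where 50.3% of all probes tested passed, 28.1% higher and 22.2% lower. The higher ones were in Gria2, Gria3, Gria4 (both probes) and Grik4, and the lower one was Grik1. No subunit probe changed above 2-fold, whereas 11.6% of all probes tested passed with such a change. The largest difference was 0.42 log2 units for Grik4, which is 1.34-fold. The median difference of the 13 probes was 0.20, beside 0.10 over all probes tested.

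Among the AMPA subunits, Gria1, a main subunit of the synaptic receptors, differed little. Its probe (A_55_P2113758) ran from 12.995 to 13.08 (median 13.04) over the Tat−/Sal arrays and from 12.91 to 13.27 (median 13.09) over the Tat−/Meth arrays. The groups overlapped and the difference was 0.05 (95% interval −0.09 to 0.19, adjusted *p* = 0.559).

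Gria2, the subunit that limits calcium entry, had 2 probes that both stood higher in Tat−/Meth. The dimmer one (A_55_P2031327) read 10.08, 10.06, 9.90, 9.87 and 10.08 in Tat−/Sal and 10.49, 10.38, 10.28, 10.39 and 10.32 in Tat−/Meth. All 5 Tat−/Meth arrays lay above all 5 Tat−/Sal arrays, a difference of 0.38 ± 0.07 (SE, adjusted *p* = 0.000278), or 1.30-fold. The brighter one (A_65_P00930) read 10.19, 10.21, 10.26, 10.44 and 10.24 in Tat−/Sal and 10.45, 10.40, 10.52, 10.44 and 10.52 in Tat−/Meth. Here 4 of the 5 Tat−/Meth arrays lay above all Tat−/Sal arrays, and the difference of 0.20 ± 0.11 (SE, adjusted *p* = 0.126) did not pass.

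For Gria3 the probes went apart. The dimmer one (A_52_P179309) read 10.02, 10.13, 10.29, 10.25 and 10.18 in Tat−/Sal and 10.56, 10.49, 10.46, 10.52 and 10.76 in Tat−/Meth. These groups did not overlap, and the probe rose by 0.39 ± 0.14 (SE, adjusted *p* = 0.0252). The brighter one (A_52_P68221) read 12.29, 12.70, 12.45, 12.65 and 12.55 in Tat−/Sal and 12.42, 12.43, 12.42, 12.41 and 12.19 in Tat−/Meth. No Tat−/Meth array lay above the range of Tat−/Sal, and the difference of −0.15 ± 0.07 (SE, adjusted *p* = 0.0717) did not pass and had the opposite sign.

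Both probes of Gria4, a subunit found largely on interneurons and glia, were higher in Tat−/Meth. The dimmer one (A_52_P349182) read 9.83, 9.85, 9.57, 9.80 and 9.69 in Tat−/Sal and 10.22, 10.17, 10.17, 10.13 and 9.85 in Tat−/Meth. In 4 of 5 Tat−/Meth arrays it lay above every Tat−/Sal array, and the difference was 0.36 ± 0.08 (SE, adjusted *p* = 0.000727). The brighter one (A_55_P1987725) read 11.40, 11.38, 11.05, 11.24 and 11.42 in Tat−/Sal and 11.76, 11.39, 11.62, 11.49 and 11.53 in Tat−/Meth. It rose by 0.26 ± 0.09 (SE, adjusted *p* = 0.0188), with 1 Tat−/Meth array within the range of Tat−/Sal.

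Among the kainate subunits, Grik4, a high-affinity subunit, was higher. Its probe (A_51_P384994) read 10.66, 9.93, 10.32, 10.52 and 9.77 in Tat−/Sal and 10.997, 10.48, 10.59, 10.63 and 10.59 in Tat−/Meth. Only 1 Tat−/Meth array lay above all Tat−/Sal arrays, which were widely spread, and the difference was 0.42 ± 0.15 (SE, adjusted *p* = 0.026). Grik1, a channel-forming subunit, was the one that fell. Its probe (A_51_P282609) read 7.03, 6.70, 6.97, 6.86 and 6.61 in Tat−/Sal and 6.99, 6.42, 6.35, 6.26 and 6.16 in Tat−/Meth. In 4 of 5 Tat−/Meth arrays it lay below all Tat−/Sal arrays, a difference of −0.40 ± 0.16 (SE, adjusted *p* = 0.0477).

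The other kainate probes did not pass in this comparison. The dimmer Grik2 probe (A_55_P2039981) read 7.32, 7.17, 7.50, 7.44 and 6.63 in Tat−/Sal and 7.47, 7.52, 7.83, 7.76 and 7.54 in Tat−/Meth. Its difference was 0.41 ± 0.19 (SE, adjusted *p* = 0.0819), and 4 of the 5 Tat−/Meth values exceeded all of Tat−/Sal. The brighter Grik2 probe (A_55_P2039992) differed by −0.05 (95% interval −0.35 to 0.25), the brighter Grik3 probe (A_66_P120555) by 0.09 (−0.03 to 0.21) and Grik5 (A_51_P428754) by −0.01 (−0.24 to 0.22).

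Groups that did not overlap were found for 2 of the 13 probes, the dimmer Gria2 and Gria3 probes, beside 36.6% of all probes tested. Several of these calls ended without single arrays. Grik1 lost its call in 15 of the 20 fits without 1 array, and its adjusted *p* reached 0.11 without Tat−/Meth replicate 5. Its main adjusted *p* of 0.0477 lay near the threshold. Some of these fits left out Tat+ arrays, where the difference stayed at −0.40 (0.0547 without Tat+/Meth replicate 3). Over the 20 fits the Grik1 difference went as low as −0.54 and the adjusted *p* as low as 0.00606. It also lost its call under other processing. The difference was −0.03 (adjusted *p* = 0.799) with the normexp background correction, −0.56 (0.225) with quantile normalization, −0.28 (0.356) with scaling to the median and −0.28 (0.0836) on the authors' processed values, and the adjusted *p* was 0.0835 without a filter, 0.0531 with only the groups compared and 0.0652 with a trend in the prior variance. The other calls that ended were those of the dimmer Gria3 probe without Tat−/Meth replicate 5 or Tat−/Sal replicate 1 (adjusted *p* = 0.0598 in both), the brighter Gria4 probe without Tat−/Meth replicate 1 (0.0589) or Tat−/Sal replicate 3 (0.0612), and Grik4 without Tat−/Meth replicate 1 (0.0789), Tat−/Sal replicate 2 (0.0758) or Tat−/Sal replicate 5 (0.0839). Of these, the dimmer Gria3 probe also lost its call on the authors' processed values (0.0502), the brighter Gria4 probe with scaling to the median (0.101), and Grik4 with only the groups compared (0.0752). The dimmer Gria4 probe lost its call with scaling to the median (0.0557). The brighter Gria2 probe gained a call without Tat+/Sal replicate 1 (0.0283) and the brighter Gria3 probe without Tat−/Sal replicate 1 (0.0092).

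The scale mattered more than any array. Without scaling, the median of all probes tested lay at −0.33 in this comparison, and 6 subunit probes passed, all lower in Tat−/Meth, where 50.4% of all probes passed and 97.8% of these were lower. Scaling moves all probes of an array by the same amount, so it barely alters the distance of a difference from that median. That distance is therefore no check of the scaling. With the normexp background correction, whose median was 0.28, the brighter Gria4 probe (0.24) moved to the other side. The other called differences did not, with the dimmer Gria4 probe at 0.29. With scaling to the median of each array 3 of the 13 probes passed, and with the brightest probe of each gene alone 3 of the 9 genes did. No share of all probes is given beside these counts, so by themselves they do not tell a change of the subunits from a general change in calls. Higher and lower here mean relative to the other genes of the same array.

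Markers of other cells passed in this comparison too, in which 50.3% of all probes tested passed. The 2 oligodendrocyte precursor markers were both higher in Tat−/Meth, Pdgfra by 0.47 (adjusted *p* = 1.36e-06) and Cspg4 by 0.28 (adjusted *p* = 0.0353), and their summed level was 11.63 to 11.85 in Tat−/Meth and 11.29 to 11.39 in Tat−/Sal. Of 4 astrocyte markers 2 were higher, Aldh1l1 by 0.19 and Slc1a3 by 0.31, and the summed level of the list was 15.24 to 15.53 in Tat−/Meth and 15.12 to 15.18 in Tat−/Sal. Of the 5 interneuron markers Sst was higher by 0.34 (adjusted *p* = 0.00154), Chat differed by −0.45 (adjusted *p* = 0.00409) and Pvalb, Npy and Nos1 did not pass. The summed level of the list was 15.98 to 16.24 in Tat−/Meth and 15.73 to 15.94 in Tat−/Sal, without overlap. That sum is taken over unlogged signals and is mostly Sst (mean 15.54, the next being Npy at 13.29). It therefore does not show a shift of the whole list. Of the 10 striatal neuron markers 1 was higher and 2 were lower, and of the 4 oligodendrocyte markers 0 passed. Single markers of other lists passed too, with Prox1 of hippocampal granule cells at 0.81, Pcp2 of the cerebellum at −0.89 and P2ry12 of microglia at −0.35. The other markers of these lists did not pass or were not tested. Cbln1 of the cerebellum differed by 0.19, the other way from Pcp2, and Gabra6 and the hippocampal Dsp were not tested. Prox1 had a mean of 6.29 over the arrays, near the limit of 6 for a test. The part of these cells in the subunit differences was not tested.

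The comparison Tat+/Meth vs. Tat−/Meth asks how Meth-treated mice differed with Tat. Here 7 of the 13 subunit probes passed (limma), all lower in Tat+/Meth, where 53.5% of all probes tested passed, 23.2% higher and 30.3% lower. They were in Gria2, Gria3, Gria4 (both probes), Grik2, Grik3 and Grik4. None changed above 2-fold, beside 12.0% of all probes tested. The median difference of the 13 probes was −0.18, beside −0.09 over all probes tested. This comparison has its Tat−/Meth arrays in common with the former one, so their signs are not independent.

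In the AMPA family the dimmer Gria2 probe read 9.95, 9.98, 10.05, 9.79 and 10.13 in Tat+/Meth. All 5 arrays lay below the Tat−/Meth arrays given above, a difference of −0.39 ± 0.07 (SE, adjusted *p* = 0.000174). The dimmer Gria4 probe read 9.79, 9.56, 9.61, 9.61 and 9.60 in Tat+/Meth. It too lay below all Tat−/Meth arrays and fell by 0.47 ± 0.08 (SE, adjusted *p* = 4.98e-05) on the log2 scale, or to 0.721 of the level in Tat−/Meth. The brighter Gria4 probe read 11.27, 11.15, 11.32, 11.35 and 11.45 in Tat+/Meth, a difference of −0.25 ± 0.09 (SE, adjusted *p* = 0.021) with 4 of 5 arrays below all of Tat−/Meth.

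The dimmer Gria3 probe read 10.23, 10.33, 10.33, 9.91 and 10.22 in Tat+/Meth. It did not overlap Tat−/Meth, and the difference was −0.36 ± 0.14 (SE, adjusted *p* = 0.0348). The brighter Gria3 probe (0.09, 95% interval −0.05 to 0.24), the brighter Gria2 probe (−0.12, −0.34 to 0.11) and Gria1 (−0.08, −0.22 to 0.07) did not pass.

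In the kainate family Grik4 had the largest difference of the 13 probes. It read 10.05, 9.92, 10.18, 10.05 and 9.85 in Tat+/Meth. All 5 values lay below all Tat−/Meth values, a difference of −0.64 ± 0.15 (SE, adjusted *p* = 0.00135). The brighter Grik3 probe, a subunit of presynaptic and postsynaptic kainate receptors, read 12.26, 12.20, 12.36, 12.35 and 12.23 in Tat−/Meth and 12.08, 12.10, 12.14, 12.04 and 12.14 in Tat+/Meth. The groups did not overlap, and the small difference of −0.18 ± 0.06 (SE, adjusted *p* = 0.0147) passed with the tightest replicates of all the subunit probes.

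The dimmer Grik2 probe read 7.40, 6.74, 6.96, 7.67 and 6.56 in Tat+/Meth. In 4 of 5 arrays it lay below all Tat−/Meth arrays, and the difference was −0.56 ± 0.19 (SE, adjusted *p* = 0.0204). The brighter Grik2 probe (−0.14, 95% interval −0.44 to 0.17), Grik1 (0.19, −0.15 to 0.53) and Grik5 (0.18, −0.05 to 0.41) did not pass.

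Groups that did not overlap were found for 5 of the 13 probes, those of Gria2 (dimmer), Gria3 (dimmer), Gria4 (dimmer), Grik3 and Grik4, beside 37.2% of all probes tested. Without single arrays the brighter Gria4 probe lost its call (adjusted *p* = 0.0659 without Tat−/Meth replicate 1 and 0.0612 without Tat+/Meth replicate 2), as did the dimmer Grik2 probe (0.0502 without Tat−/Meth replicate 3, 0.0581 without Tat+/Meth replicate 2 and 0.0652 without Tat+/Meth replicate 5). The dimmer Gria3 probe lost its call in 5 such fits, without Tat−/Meth replicate 1 or 5 or Tat+/Meth replicate 1, 4 or 5, with an adjusted *p* of up to 0.0991, and also on the authors' processed values (0.0586) and without a filter (0.0673). Grik3 lost its call with quantile normalization (−0.13, adjusted *p* = 0.0779), with scaling to the median (−0.34, 0.111) and with the mean over its probes (−0.10, 0.732). That mean includes the dimmer Grik3 probe, which was well above background on 4 of 20 arrays and was not tested by itself. The brighter Gria4 probe lost its call with scaling to the median (0.0714). On unscaled signals, with the median of all probes at 0.25, 3 subunit probes passed, all higher in Tat+/Meth (the brighter Gria3 probe, Grik1 and Grik5). There 42.9% of all probes passed and 94.9% of these were higher. With normexp, whose median was −0.26, the brighter Gria4 probe (−0.22) and Grik3 (−0.21) moved to the other side of the median. The other called differences did not. Cell markers passed here too, beside the 53.5% of all probes tested. The oligodendrocyte precursor marker Pdgfra differed by −0.59 in Tat+/Meth (adjusted *p* = 7.33e-08), and 3 of the 4 astrocyte markers and 2 of the 4 oligodendrocyte markers were lower too. The other precursor marker, Cspg4, differed by −0.07 (adjusted *p* = 0.576) and did not pass. Of the interneuron markers Chat was higher by 0.53 (adjusted *p* = 0.00108), and of the microglial markers P2ry12 was higher by 0.30 (adjusted *p* = 0.025) and Cx3cr1 differed by −0.32 (adjusted *p* = 0.00692). Prox1 differed by −0.94, Pcp2 by 1.02 and Alas2 of red blood cells by −0.97. Cbln1 (−0.46, the other way from Pcp2) and Hba-a1 of red blood cells (−0.37) did not pass. The part of any of these cells in the subunit differences was not tested.

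**Figure D2:**
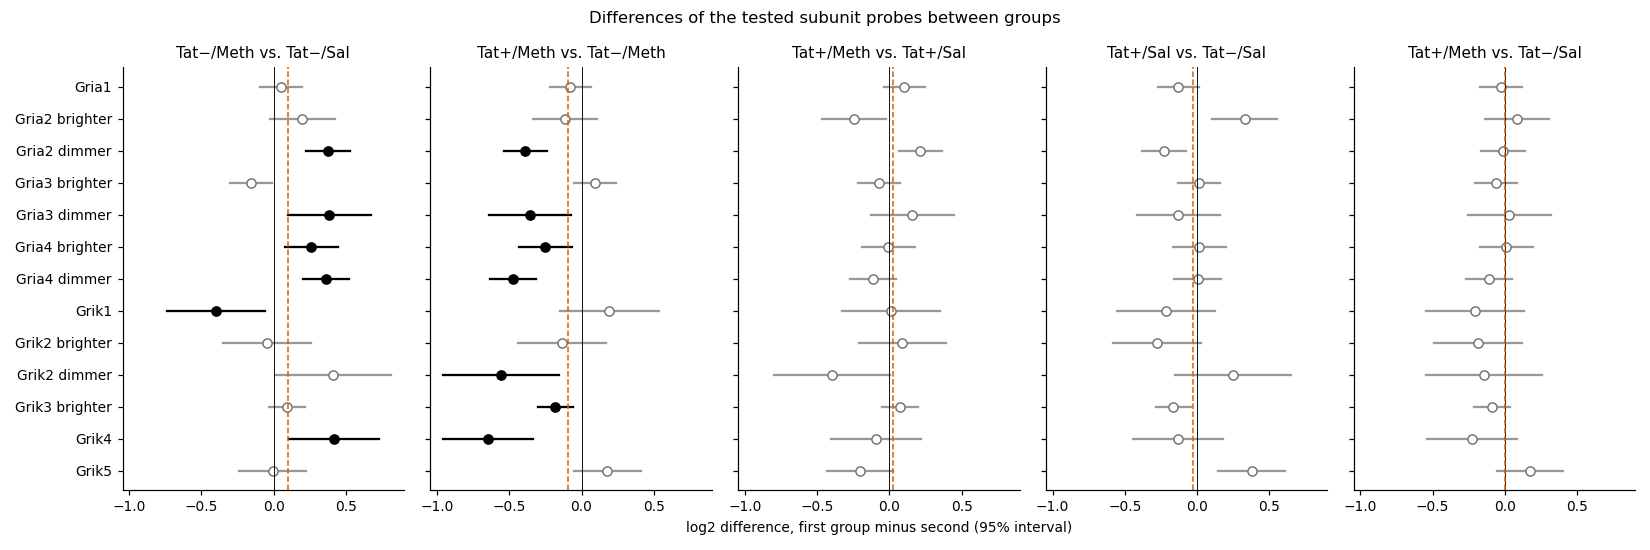
Differences of the 13 tested probes (rows) on the scaled log2 values in the 5 comparisons of groups, with 95% intervals. Filled points passed at an adjusted *p* under 0.05 and the dashed line is the median over all probes tested; points that passed are in the 2 comparisons with Tat−/Meth, and on unscaled signals all that pass there are lower in Tat−/Meth.

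The remaining comparisons do not involve Tat−/Meth. Tat+/Meth vs. Tat+/Sal looks at Meth in mice with Tat, and 0 of the 13 subunit probes passed (limma), as did 0 of the 31516 probes tested. The groups overlapped for all 13, beside 2.20% of all probes for which they did not. At an unadjusted *p* under 0.05 there were 11.5% of all probes, among them both Gria2 probes, with opposite signs. The dimmer Gria2 probe read 9.77, 9.93, 9.76, 9.64 and 9.74 in Tat+/Sal. In 4 of 5 Tat+/Meth arrays it lay above all of these, a difference of 0.21 ± 0.07 (SE, adjusted *p* = 0.293). The brighter Gria2 probe read 10.12, 10.62, 10.90, 10.76 and 10.59 in Tat+/Sal and 10.47, 10.42, 10.21, 10.42 and 10.25 in Tat+/Meth. Its difference was −0.25 ± 0.11 (SE, adjusted *p* = 0.392), with groups that overlapped. The dimmer Grik2 probe read 7.28, 7.52, 7.76, 7.26 and 7.50 in Tat+/Sal, and the difference was −0.40 ± 0.19 (SE, adjusted *p* = 0.44).

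Tat+/Sal vs. Tat−/Sal looks at the transgene without Meth, and 0 of the 13 probes passed, beside 0.708% of all probes tested. The groups overlapped for all 13 (4.53% of all probes did not). Grik5, the high-affinity subunit most widely expressed in the brain, came nearest. It read 13.66, 13.61, 14.12, 13.62 and 13.83 in Tat−/Sal and 14.14, 14.14, 14.35, 13.85 and 14.24 in Tat+/Sal. In 4 of 5 Tat+/Sal arrays it lay above all Tat−/Sal arrays, a difference of 0.38 ± 0.11 (SE, adjusted *p* = 0.103), and it passed without Tat−/Sal replicate 3 (adjusted *p* = 0.0352).

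The Gria2 probes again had opposite signs in Tat+/Sal vs. Tat−/Sal, 0.33 ± 0.11 (SE, adjusted *p* = 0.132) for the brighter and −0.23 ± 0.07 (SE, adjusted *p* = 0.124) for the dimmer one. The brighter probe passed without Tat+/Sal replicate 1 (adjusted *p* = 0.0297), the lowest array of its group. These groups lay on different slides, and Tat+/Meth lay on both. With the slide as a fixed block 0 of the 13 probes passed, and with it as a random block 4 passed, 2 higher and 2 lower. That random block, with an estimated correlation within slides of −0.06, called 9.49% of all probes here, beside the 0.708% without it.

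Tat+/Meth vs. Tat−/Sal compares both factors with neither. Again 0 of the 13 probes passed, with 1 of all 31516 probes (0.00317%). The differences ran from −0.23 for Grik4 to 0.17 for Grik5, and the smallest adjusted *p* was 0.786. The groups overlapped for all 13 (1.58% of all probes did not). The intervals show what these arrays leave possible. For Gria1 the difference was −0.03 (95% interval −0.17 to 0.12), for the dimmer Gria2 probe −0.01 (−0.16 to 0.14) and for the dimmer Gria4 probe −0.11 (−0.27 to 0.05), whereas for the dimmer Grik2 probe it was −0.14 (−0.55 to 0.26).

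The groups could be compared within a slide in part. On slide 2 the 3 Tat+/Meth arrays differed from the 5 Tat−/Sal arrays by −0.33 for Grik1, the largest difference of the tested probes, and on slide 3 the 2 Tat+/Meth arrays differed from the 5 Tat+/Sal arrays by −0.35 for the dimmer Grik2 probe, the largest there. In both fits 0 of the 13 probes passed.

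The interaction, in which the Meth difference of Tat− mice is subtracted from that of Tat+ mice, tests whether the Meth difference itself differed with Tat. Here 3 of the 13 probes passed (limma), all negative, where 37.0% of all probes tested passed and 18.1% passed in this direction. They were the dimmer Gria4 probe at −0.48 ± 0.11 (SE, adjusted *p* = 0.00203), the brighter Gria2 probe at −0.44 ± 0.15 (SE, adjusted *p* = 0.0263) and the dimmer Grik2 probe at −0.81 ± 0.27 (SE, adjusted *p* = 0.0255).

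For the dimmer Gria4 probe the values were 9.69, 9.91, 9.73, 9.68 and 9.74 in Tat+/Sal, and the Meth difference was 0.36 without Tat and −0.11 with Tat. For the brighter Gria2 probe these differences were 0.20 and −0.25, and for the dimmer Grik2 probe 0.41 and −0.40. Grik4 at −0.51 ± 0.21 (SE, adjusted *p* = 0.065) and the brighter Gria4 probe at −0.27 ± 0.12 (SE, adjusted *p* = 0.0987) had the same sign and did not pass. The second probes of Gria2 and Grik2 did not pass either. The dimmer Gria2 probe was at −0.16 (adjusted *p* = 0.229) and the brighter Grik2 probe, with the other sign, at 0.14 (0.628). The dimmer Grik2 probe lost its call without Tat+/Meth replicate 2 (adjusted *p* = 0.0501), Grik4 gained one without Tat−/Sal replicate 1 (0.0212) or Tat−/Sal replicate 4 (0.0425), and Grik1 gained one, with the other sign, without Tat−/Meth replicate 1 (0.0424). The interaction holds Tat−/Meth and its slide as well, and on unscaled signals, with the median of all probes at 0.42, 5 subunit probes passed, all with the other sign, where 43.4% of all probes passed and 99.0% of these had that sign. With scaling to the median the calls of the brighter Gria2 probe (0.0501) and the dimmer Gria4 probe (0.0654) ended, and without a filter those of the brighter Gria2 probe (0.057) and the dimmer Grik2 probe (0.0508).

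**Figure D3:**
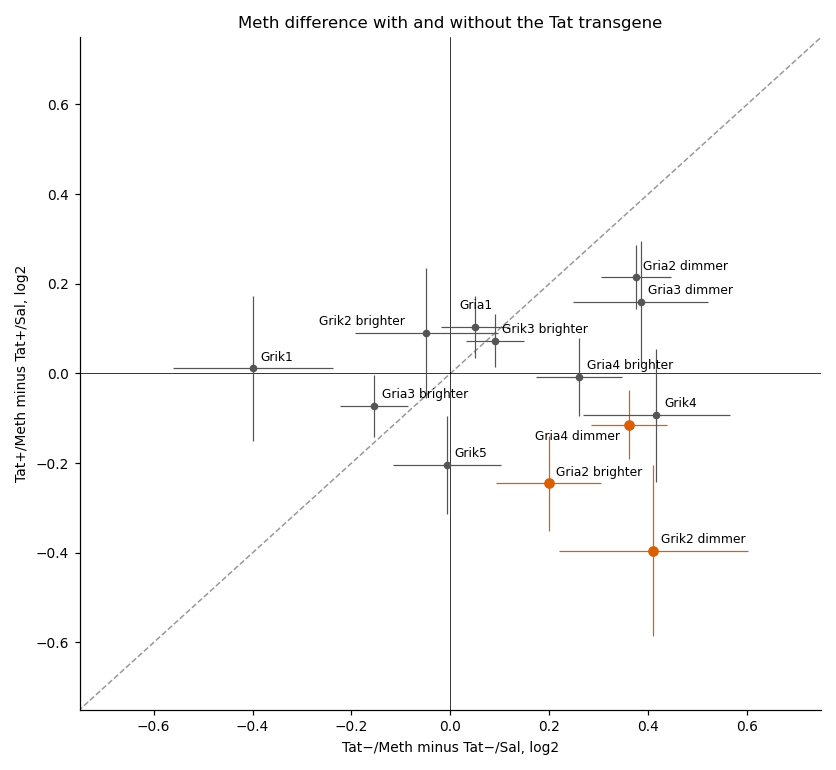
Difference between Meth and saline on the scaled log2 values in Tat− mice (horizontal axis) and Tat+ mice (vertical axis) for the 13 tested probes, with SE. The dashed line marks equal differences and the 3 larger orange points passed the interaction test; they lie right of the vertical zero line and below the horizontal one, whereas on unscaled signals the probes that pass have the other sign.

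Where a gene had 2 measured probes, the difference between them within an array does not depend on the scaling. This was tested after the values had been seen, for 4 genes in 5 comparisons with exact two-sided permutation tests, whose smallest *p* for 5 against 5 arrays is 0.00794. For Gria3 the brighter probe exceeded the dimmer one by 1.82 ± 0.22 for Tat−/Meth (mean ± SD, n = 5), beside 2.27 ± 0.18 for Tat+/Meth, 2.36 ± 0.15 for Tat−/Sal and 2.50 ± 0.40 for Tat+/Sal. Tat−/Meth did not overlap Tat−/Sal or Tat+/Meth (exact permutation *p* = 0.00794 for each, 0.0794 after adjustment over the 20 tests), and the other groups overlapped.

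The Gria2 probes differed by 0.83 ± 0.33 for Tat+/Sal (mean ± SD, n = 5), beside 0.10 ± 0.12 for Tat−/Meth, 0.27 ± 0.19 for Tat−/Sal and 0.37 ± 0.23 for Tat+/Meth. For Tat+/Sal vs. Tat−/Sal the exact permutation *p* was 0.0238 (0.119 adjusted). The Grik2 probes differed by 0.27 ± 0.32 for Tat+/Sal and 0.34 ± 0.27 for Tat−/Meth, below the 0.80 ± 0.29 of Tat−/Sal and the 0.76 ± 0.42 of Tat+/Meth, with overlapping arrays. None of the 20 tests passed after adjustment. Both Gria3 probes are named for the same transcript and the Gria2 probes for different ones.

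**Figure D4:**
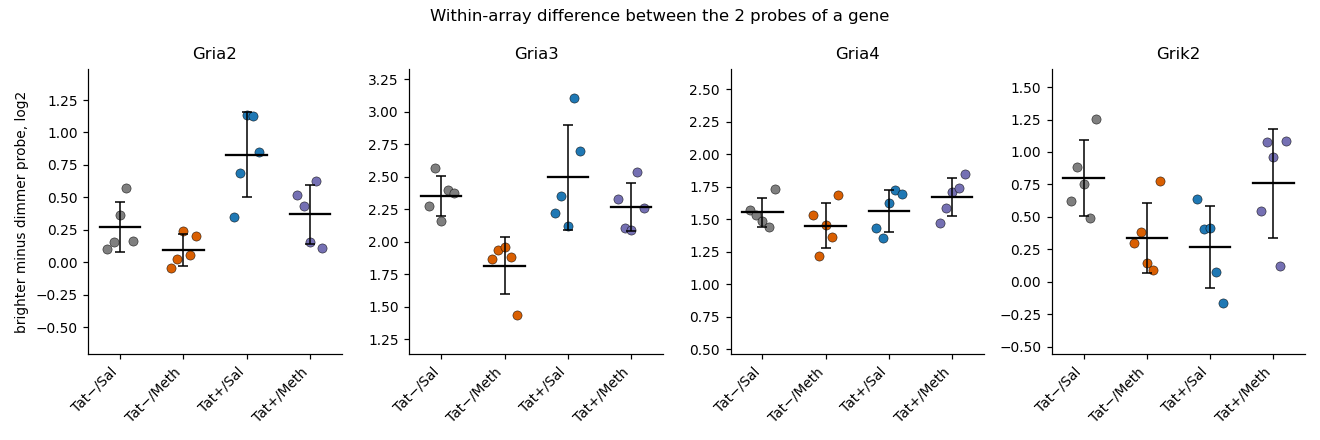
Brighter minus dimmer probe of the same gene within each array (vertical axis, log2 units) for Gria2, Gria3, Gria4 and Grik2, by group. Points are arrays, bars are means and whiskers are SD (n = 5); the Tat−/Meth arrays of Gria3 lie below all arrays of the other groups.

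As a description, the deviations of the probes from their group means were correlated over the 20 arrays, which share their scaling. The highest of the 78 pairs was the dimmer Gria3 probe with the brighter Grik2 probe (r = 0.78). Both were low on Tat+/Sal replicates 4 and 5, where Gria3 read 9.48 and 9.85 and Grik2 7.34 and 7.34. The probe pairs of 1 gene had r of −0.38 for Gria2, −0.17 for Gria3, 0.28 for Gria4 and 0.32 for Grik2, and the other 74 pairs ran from −0.57 to 0.78 with a median of 0.07. The values of same-gene probes thus lay within the range of the other pairs.

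The genes whose centred values were nearest to each subunit over the 20 arrays, by the root mean square difference of the brightest probes among 15061 genes, were Casc3 and Surf4 for Gria1, Rps15 and Irf2 for Gria2, Braf and Cstf2 for Gria3 and Slc2a5 and Nisch for Gria4. For the kainate subunits they were Chd8 and Steap2 for Grik1, 3300002I08Rik and Wasf3 for Grik2, Gga3 and Med14 for Grik3, Fhod3 and Hdhd2 for Grik4 and Phyhip and Meis3 for Grik5. The differences were from 0.06 for Casc3 to 0.19 for Chd8 and Steap2, beside SDs of the subunits themselves of 0.11 to 0.34. No other subunit of either family was among them.

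The partners of these receptors were listed as 33 genes in 6 classes. Of these, 31 were tested with 43 probes. Against Tat−/Sal, Tat−/Meth had 15 of the 43 probes passing, 11 higher and 4 lower, or 34.9%, beside 50.3% of all probes tested. In Tat+/Meth vs. Tat−/Meth 21 passed, 5 higher and 16 lower, or 48.8%, beside 53.5% of all probes. In the interaction 11 passed, 3 higher and 8 lower, or 25.6%, beside 37.0% of all probes. In the comparisons without Tat−/Meth 0 passed, and none changed above 2-fold in any comparison.

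Among the 19 probes of AMPA receptor auxiliary subunits, which set the trafficking and gating of the receptor, 6 passed in Tat−/Meth vs. Tat−/Sal, 5 higher and 1 lower. Gsg1l, an auxiliary subunit that slows recovery from desensitization, rose by 0.66 ± 0.11 (SE, adjusted *p* = 9.79e-05) on its dimmer probe, while its brighter probe differed by −0.05. Cnih2, a cornichon protein that helps AMPA receptors leave the endoplasmic reticulum, fell by 0.51 ± 0.09 (SE, adjusted *p* = 0.000103) on the log2 scale on its brighter probe, while the other differed by 0.09. Against Tat−/Meth, Tat+/Meth differed on the same probes by −0.63 ± 0.11 (SE, adjusted *p* = 0.000127) for Gsg1l and 0.73 ± 0.09 (SE, adjusted *p* = 1.71e-06) for Cnih2. Frrs1l, which takes part in the assembly of AMPA receptors, had an interaction of −0.74 ± 0.17 (SE, adjusted *p* = 0.00177) on 1 of its 3 probes, and that of the dimmer Gsg1l probe was −0.79 ± 0.16 (SE, adjusted *p* = 0.000739). The other probes of both genes did not pass the interaction.

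Of the 3 probes of RNA editing enzymes 2 passed in both comparisons with Tat−/Meth. Adar, an RNA editing enzyme of broad function, fell by 0.67 ± 0.10 (SE, adjusted *p* = 2.6e-05) on the log2 scale on its dimmer probe in Tat−/Meth vs. Tat−/Sal and differed by 0.70 ± 0.10 (SE, adjusted *p* = 1.46e-05) in Tat+/Meth vs. Tat−/Meth and by 0.75 ± 0.14 (SE, adjusted *p* = 0.000491) in the interaction. Adarb1, which edits the pore of Gria2, rose by 0.25 ± 0.05 (SE, adjusted *p* = 0.00087) in Tat−/Meth and differed by −0.38 ± 0.05 (SE, adjusted *p* = 8.43e-06) in Tat+/Meth vs. Tat−/Meth. The brighter Adar probe differed by 0.08 and −0.04 in these comparisons and did not pass. Of the kainate auxiliary subunits 1 of 3 probes passed in Tat−/Meth vs. Tat−/Sal, of the scaffold and trafficking genes 5 of 14, of the delta receptors 1 of 2 and of the pentraxins 0 of 2. On unscaled signals the probes that passed, 19 against Tat−/Sal and 16 against Tat+/Meth, were all lower in Tat−/Meth, where 50.4% and 42.9% of all probes passed, 97.8% and 94.9% of these being lower in Tat−/Meth.

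**Figure D5:**
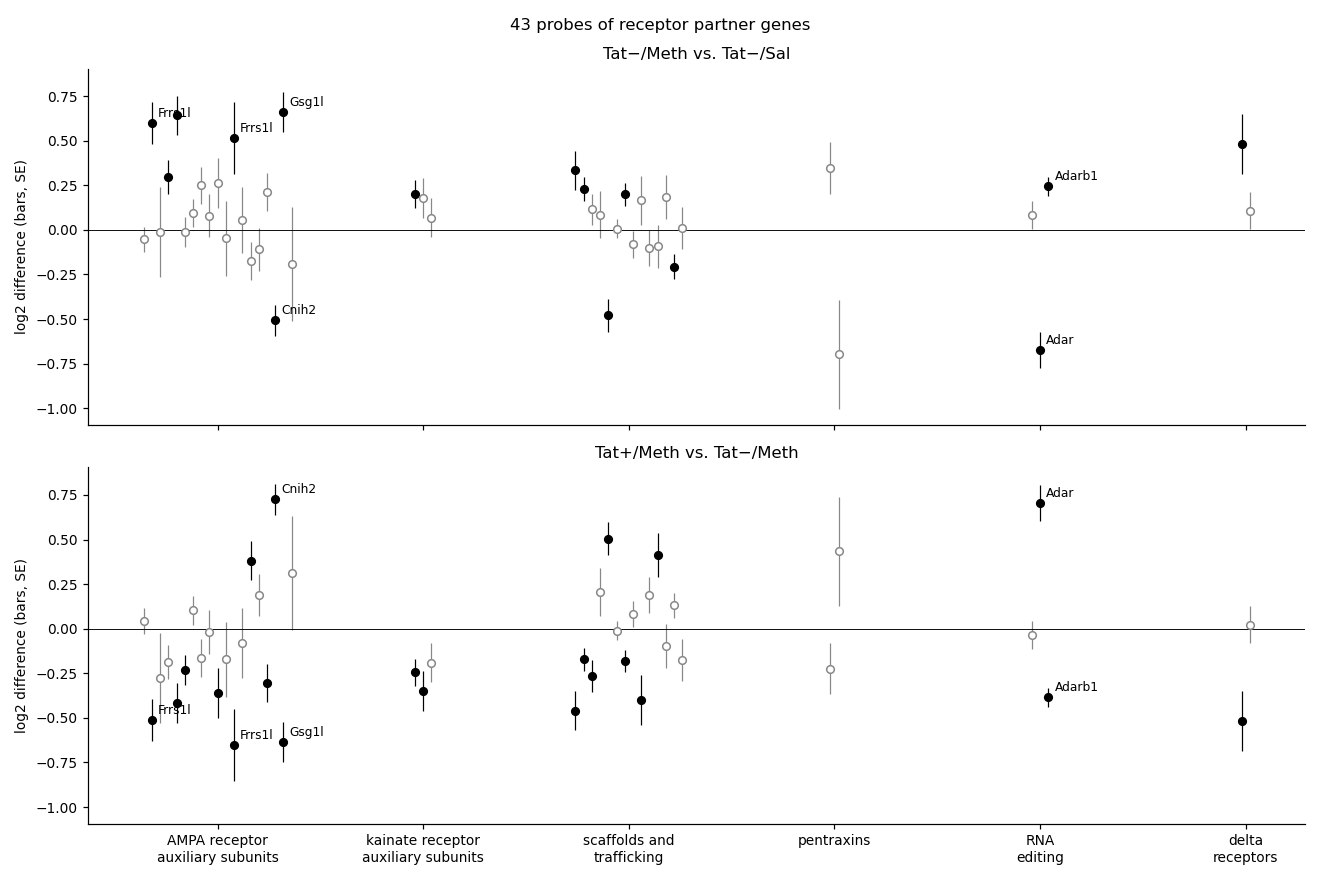
Differences on the scaled log2 values (points, with SE) for the 43 probes of receptor partner genes in 6 classes, in Tat−/Meth vs. Tat−/Sal (upper panel) and Tat+/Meth vs. Tat−/Meth (lower panel). Filled points passed at an adjusted *p* under 0.05, 15 in the upper and 21 in the lower panel; the panels share the Tat−/Meth arrays, and on unscaled signals the points that pass all lie lower in Tat−/Meth.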

How the data were processed

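RNA of each mouse was hybridised to a one-colour Agilent array, and per the file headers the scans were quantified with Agilent Feature Extraction 10.7.3.1. The deposited values are intensities, as processed signals from which the authors' software had subtracted background. Of the 62976 spots of each array, 3671 controls were left out, as were 4278 spots flagged as outliers over all 20 arrays, and log2(processed signal) less the 75th percentile of each array was used, moved by 1 constant to the usual range. Symbols were taken through RefSeq accessions. Probes with a highest group mean of at least 6 and at least 3 values in each group were tested with limma 3.58.1 (R 4.3.3), with 1 mean for each group over all 20 arrays and Benjamini–Hochberg adjustment over 31516 probes. The number of arrays limits the precision.

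All probes of the 9 genes are named. Partners are named if they passed with a change above 2-fold or had 1 of the 3 smallest adjusted *p* values of a comparison. Adarb1 and the probes of Adar, Gsg1l and Cnih2 that did not pass are given beside them. Likeness used the brightest probes. The members and lists were chosen with earlier results of these data known. Alternatives changed scaling, background, filter, block, test and samples. The fit was also run on simulated data that held no slide effect, so that run does not bear on the slide. Labels and methods differ on tissue, age, time and dye, and groups follow the labels. The labels give each array its own animal.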

Additional observations from a re-analysis of the deposited data

Results flagged for a closer look

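In 9 of the 56 groups of 5 values (14 probes in 4 groups), or 16.1%, the highest or lowest array stood apart from the rest by more than Dixon's 95% critical value of 0.71, where chance gives about 1 in 20. The share over all probes was not taken, and the 14 probes share their arrays, so the excess is not shown to belong to the subunits. For Gria2 the brighter probe was 10.44 on Tat−/Sal replicate 4, with the nearest array at 10.26. For Gria3 the brighter probe was 12.19 on Tat−/Meth replicate 5, with the nearest at 12.41, and the dimmer probe was 9.91 on Tat+/Meth replicate 4, with the nearest at 10.22. The dimmer Gria4 probe stood apart in 3 groups, at 9.85 on Tat−/Meth replicate 5 (nearest 10.13), 9.79 on Tat+/Meth replicate 1 (nearest 9.61) and 9.91 on Tat+/Sal replicate 2 (nearest 9.74). Of the Grik3 probes the brighter was 12.21 on Tat+/Sal replicate 1 (nearest 12.00) and the dimmer, mostly not well above background, was 6.74 on Tat−/Meth replicate 5 (nearest 4.37). Grik4 was 10.997 on Tat−/Meth replicate 1 (nearest 10.63). Of these 9 values, 3 were on Tat−/Meth replicate 5.

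The difference between Meth and saline differed between Tat+ and Tat− mice, by the interaction in limma, for the brighter Gria2 probe (−0.44), the dimmer Gria4 probe (−0.48) and the dimmer Grik2 probe (−0.81). All 3 involve the Tat−/Meth arrays, which cannot be told apart from slide 1. The other probes of Gria2 (−0.16), Gria4 (−0.27) and Grik2 (0.14) did not pass.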

How the results depend on the processing

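Scaling had the widest effect. Without scaling the median of all probes tested was −0.33 for Tat−/Meth vs. Tat−/Sal, 0.25 for Tat+/Meth vs. Tat−/Meth and 0.42 for the interaction, and of all calls 2.23%, 94.9% and 99.0% were higher, beside 55.8%, 43.4% and 51.2% on scaled signals and 80.7%, 21.9% and 25.3% with normexp. Subunit calls were then 3 in Tat+/Meth vs. Tat−/Meth and 5 in the interaction, and Tat−/Meth was the highest group for 0 probes. Signs turned in Tat−/Meth vs. Tat−/Sal for Gria1 (−0.37), both Gria2 probes (brighter −0.22, dimmer −0.046), the dimmer Gria3 probe (−0.036), both Gria4 probes (brighter −0.16, dimmer −0.059), the dimmer Grik2 probe (−0.0105), Grik3 (−0.33) and Grik4 (−0.0041). They turned in Tat+/Meth vs. Tat−/Meth for Gria1 (0.26) and the brighter Gria2 (0.22), Gria4 (0.087), Grik2 (0.20) and Grik3 (0.16) probes, and in the interaction for both Gria2 probes (brighter 0.042, dimmer 0.32), the dimmer Gria3 probe (0.26), both Gria4 probes (brighter 0.22, dimmer 0.0095), Grik3 (0.47) and Grik5 (0.29). In the other comparisons the 6 turned differences were small, from −0.14 to 0.058. Scaling moves all probes of an array alike, so the side of a difference relative to the median of all probes is no check of the scaling. With normexp, 13 of the 16 called differences kept their side of that median.

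With median scaling subunit calls numbered 3 for Tat−/Meth vs. Tat−/Sal with 1 for the interaction, and partner calls 6, 12 in Tat+/Meth vs. Tat−/Meth and 3. Without a filter the interaction had 1 subunit call. With the brightest probe of each of the 9 genes, subunit calls were 3, 3 and 1 and partner calls in the interaction 6, and with the mean over probes Tat+/Meth vs. Tat−/Meth had 4. With the slide as a random block Tat+/Sal vs. Tat−/Sal had 4 subunit and 4 partner calls, and the interaction 5 subunit calls, where 9.49% and 46.3% of all probes were called. The methods' t-test without adjustment called 2 subunit and 5 partner probes for Tat+/Meth vs. Tat+/Sal, then 5 and 10 for Tat+/Sal vs. Tat−/Sal, and 4 partner probes for Tat+/Meth vs. Tat−/Sal, where 11.1%, 16.6% and 8.18% of all probes were called, and after Benjamini–Hochberg adjustment 0 in each. After that adjustment it ended the calls of Grik1 (0.0782), Grik4 (0.108) and the brighter Gria4 probe (0.0506) for Tat−/Meth vs. Tat−/Sal and of the dimmer Grik2 probe (0.0661) for Tat+/Meth vs. Tat−/Meth. Both thresholds with a fold (2-fold and 3-fold) left 0. The causes were not tested. Where no share of all probes stands beside a count, here or in the fits without 1 array below, the count by itself does not tell a change from a general change in calls.

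Without 1 array, subunit calls ran from 4 to 7 in Tat−/Meth vs. Tat−/Sal, 5 to 7 in Tat+/Meth vs. Tat−/Meth, 0 to 1 in Tat+/Sal vs. Tat−/Sal and 2 to 4 in the interaction, and were 0 in the other comparisons. Partner calls ran from 13 to 16, 16 to 23 and 10 to 13 where there were any, and the count of probes highest in Tat−/Meth from 8 to 9. With the replicate number as a block, subunit calls were 6, 7 and, in the interaction, 4 (Grik4 added, adjusted *p* = 0.0215), and partner calls 18, 20 and 14. The numbers do not pair the samples, since same-numbered arrays deviated together only weakly (30 pairs, median r = 0.057, 9 over 0.1). The slide as a fixed block could not be fitted with Tat−/Meth, and the t-test gives no interaction. The alternatives for probe pairs, levels and partners were chosen after seeing the data.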
